A study of Mus musculus with 13 samples.

Results

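Binding of the glucocorticoid receptor (GR) and of the nuclear receptor corepressor NCOR1 was examined around 7 genes of insulin signalling and glycogen metabolism in mouse liver: Insr, Irs1, Irs2, Ptpn1, Igfbp1, Ppp1r3c and Ppp1r3b. A peak was counted for a gene when that gene was the nearest protein-coding gene body to the centre of the peak, within 100 kb. Of the 217044 peaks in 7 deposited lists, 451 belonged to these 7 of 21883 protein-coding genes. Merging overlapping peaks across lists gave 135 sites.

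Livers came from male mice of 2 genotypes. The labels call the control genotype GFP and the other CRE, and the study's design names the latter a double knockout (dKO), in which NCOR1 is deleted. The other gene of the double knockout is not named here, so differences in dKO liver cannot be assigned to loss of NCOR1 alone. Saline vehicle or dexamethasone, a synthetic glucocorticoid (1 mg/kg), was injected intraperitoneally at zeitgeber time 8, and livers were frozen 2 h later at zeitgeber time 10. GR chromatin immunoprecipitation sequencing (ChIP-seq) covered both treatments in both genotypes, 4 groups of 2 libraries each. NCOR1 ChIP-seq covered control liver under vehicle (1 library) and dexamethasone (2 libraries) and dKO liver under vehicle (1 library). A control liver of the vehicle group gave the input library. Ages, and the promoter or cell type that drives Cre, are not given in the sources used here. Whole liver was used, so fewer binding cells and less binding per cell cannot be told apart.

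Insulin binds its receptor on the hepatocyte, and the receptor kinase phosphorylates the adaptor proteins IRS1 and IRS2, which recruit phosphoinositide 3-kinase and lead to AKT. AKT excludes FOXO1 from the nucleus, lowering transcription of FOXO1 targets such as Irs2 and Igfbp1, and it favours glycogen storage, which runs through glycogen synthase held on the glycogen particle by targeting subunits of protein phosphatase 1. Glucocorticoids act through GR, which binds DNA once it holds ligand and opposes insulin in the liver, whereas NCOR1 carries the deacetylase HDAC3 to chromatin-bound receptors and lowers transcription.

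Promoter sequence was available for 5 of the 7 genes in the RefSeq table used (GRCm38.p6, the assembly that mm10 names). The 250 bases before the gene start are shown for Igfbp1, Irs1, Irs2 and Ppp1r3c, and not for Ptpn1. Called peaks overlapped this stretch at Igfbp1, Irs1 and Ppp1r3c, and lay on either side of it at Irs2. Capitals mark matches to the E-box CACGTG and to the core of insulin response elements, written CAAAACA or CAAAATA, on either strand.
Igfbp1 promoter, chr11:7197537-7197786, plus strand: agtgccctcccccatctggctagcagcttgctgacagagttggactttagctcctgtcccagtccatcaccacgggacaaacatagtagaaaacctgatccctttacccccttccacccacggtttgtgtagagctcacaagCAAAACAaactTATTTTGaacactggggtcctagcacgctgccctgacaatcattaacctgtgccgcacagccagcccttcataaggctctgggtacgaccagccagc
Irs1 promoter, chr1:82291440-82291689, minus strand: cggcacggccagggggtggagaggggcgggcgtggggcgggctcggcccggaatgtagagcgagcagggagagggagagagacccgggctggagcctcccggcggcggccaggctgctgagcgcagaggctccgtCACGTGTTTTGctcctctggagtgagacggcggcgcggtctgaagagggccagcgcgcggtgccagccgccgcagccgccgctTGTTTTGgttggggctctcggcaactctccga
Irs2 promoter, chr8:11008930-11009179, minus strand: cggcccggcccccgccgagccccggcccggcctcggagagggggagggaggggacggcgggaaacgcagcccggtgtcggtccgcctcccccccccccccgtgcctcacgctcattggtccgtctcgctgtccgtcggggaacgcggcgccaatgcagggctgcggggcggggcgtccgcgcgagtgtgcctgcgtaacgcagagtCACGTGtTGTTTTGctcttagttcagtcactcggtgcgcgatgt
Ppp1r3c promoter, chr19:36736605-36736854, minus strand: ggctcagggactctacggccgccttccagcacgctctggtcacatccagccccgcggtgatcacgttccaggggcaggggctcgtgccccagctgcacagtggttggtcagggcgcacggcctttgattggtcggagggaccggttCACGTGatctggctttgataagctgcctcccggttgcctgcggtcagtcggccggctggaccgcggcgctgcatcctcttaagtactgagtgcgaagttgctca
The Igfbp1 promoter held CAAAACA 108 bases and the reverse complement of CAAAATA 97 bases before the gene start, and both lay under an NCOR1 peak of control vehicle liver. In the Irs1 promoter the reverse complement of CAAAACA lay 111 and 32 bases before the start, the former overlapping an E-box that began 115 bases before it. The Irs2 promoter had an E-box at 44 bases followed by the reverse complement of CAAAACA at 37 bases before the start. In the Ppp1r3c promoter the E-box lay 104 bases before the start, under the NCOR1 peaks of both control lists. Of 32851 promoter windows of 300 bases, 6.28% held CAAAACA, 4.36% CAAAATA and 7.15% CACGTG. These matches are letters in a window and were not tested as sites.

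Outside the promoters, sequence was available for GR peaks of control dexamethasone liver that lay in the promoter windows of non-coding genes on the distal side of Irs2, 84.8 kb and 56.0 kb from its body. They are shown because GR and NCOR1 peaks both covered them. Capitals mark AGGTCA, the hexamer of many nuclear receptors, TTGCNNAA, a C/EBP core, and CAAAATA.
Irs2 distal site over 4833411C07Rik, chr8:10899754-10899954, plus strand: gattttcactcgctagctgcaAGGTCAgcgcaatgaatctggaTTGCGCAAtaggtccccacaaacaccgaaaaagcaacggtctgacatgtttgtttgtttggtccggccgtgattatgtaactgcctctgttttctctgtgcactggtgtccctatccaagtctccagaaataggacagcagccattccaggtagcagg
Irs2 distal site over 3930402G23Rik, chr8:10928444-10928644, minus strand: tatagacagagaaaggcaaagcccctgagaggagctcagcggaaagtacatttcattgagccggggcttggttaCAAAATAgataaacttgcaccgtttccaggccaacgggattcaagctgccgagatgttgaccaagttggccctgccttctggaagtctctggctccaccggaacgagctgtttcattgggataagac
In all, 11 motifs were searched on both strands of these windows. The glucocorticoid response element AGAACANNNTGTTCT, its hexamer AGAACA and its core ACANNNTGT overlap each other. None of them had a match in the windows of Igfbp1, Irs1, Irs2, Ppp1r3c or Ptpn1. The windows of 4833411C07Rik and 3930402G23Rik, with the printed GR peaks, had no match to them either. Of all windows, 0.00913% held the full element, 19% the hexamer and 6.85% the core, and 16.3% held AGGTCA and 10.8% TTGCNNAA.

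The pooled GR lists rested on 27.5 to 31.9 M tags and the NCOR1 lists on 17.5 to 36.9 M tags. Peak heights are normalized tag counts, a signal scaled by the authors to tags per 10 M tags, and the word level below means this count. Libraries of a group were pooled before peaks were called, so the spread between animals cannot be given and no difference between groups was tested. Intervals are 95% intervals of counting error or, for medians and shares, of the number of peaks. In dKO liver the antibody against NCOR1 gave 17282 peaks that held 2.07% of tags, against 39458 peaks and 8.52% in control vehicle liver. Of 10 hepatocyte marker genes 9 had a GR peak in control dexamethasone liver, led by Tat (291.9) and Alb (203.3). So did 7 of 10 markers of other liver cells, led by Stab2 (149.4) and Ptprc (76.9). Of all protein-coding genes 54.8% had a GR peak in that list. The part of those other cells in the levels below was not tested.

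Irs2, Ptpn1, Insr and Irs1 were rich in sites. Irs2, an insulin receptor substrate, had 37 sites, Ptpn1 29, Insr 22, Irs1 19, Ppp1r3b 13, Ppp1r3c 12 and Igfbp1 3. In control dexamethasone liver Irs2 had 18 GR peaks, more than 99.3% of the genes with any peak, whose median was 2 peaks. A gene far from other genes can be assigned more peaks and more distant ones. From the Irs2 sites the next protein-coding gene was 99.8 to 277.9 kb away. The part of gene spacing in these counts and in the distances below was not tested. Igfbp1 had 2 GR peaks in each of the 4 lists. GR was called at 92 sites and NCOR1 at 113, both at 70, GR alone at 22 and NCOR1 alone at 43. Of the GR sites 35 appeared in all 4 GR lists and 26 in 1 list. Of the NCOR1 sites 74 appeared in both control lists, and 57 of these were not called in dKO liver. Site counts over all genes are not given here, but of all control vehicle NCOR1 peaks 20.5% overlapped a dKO peak. Peaks of these genes lay mostly outside the gene. Of the 73 GR peaks of control dexamethasone liver 24.7% were inside a gene body, against 55.5% of all 40853 peaks of that list. Of the same 73 peaks 54.8% lay more than 20 kb away, against 15.4% of the peaks of that list within 100 kb of a gene. Their median level was 19.5, against 12 over the whole list.

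**Figure D1:**
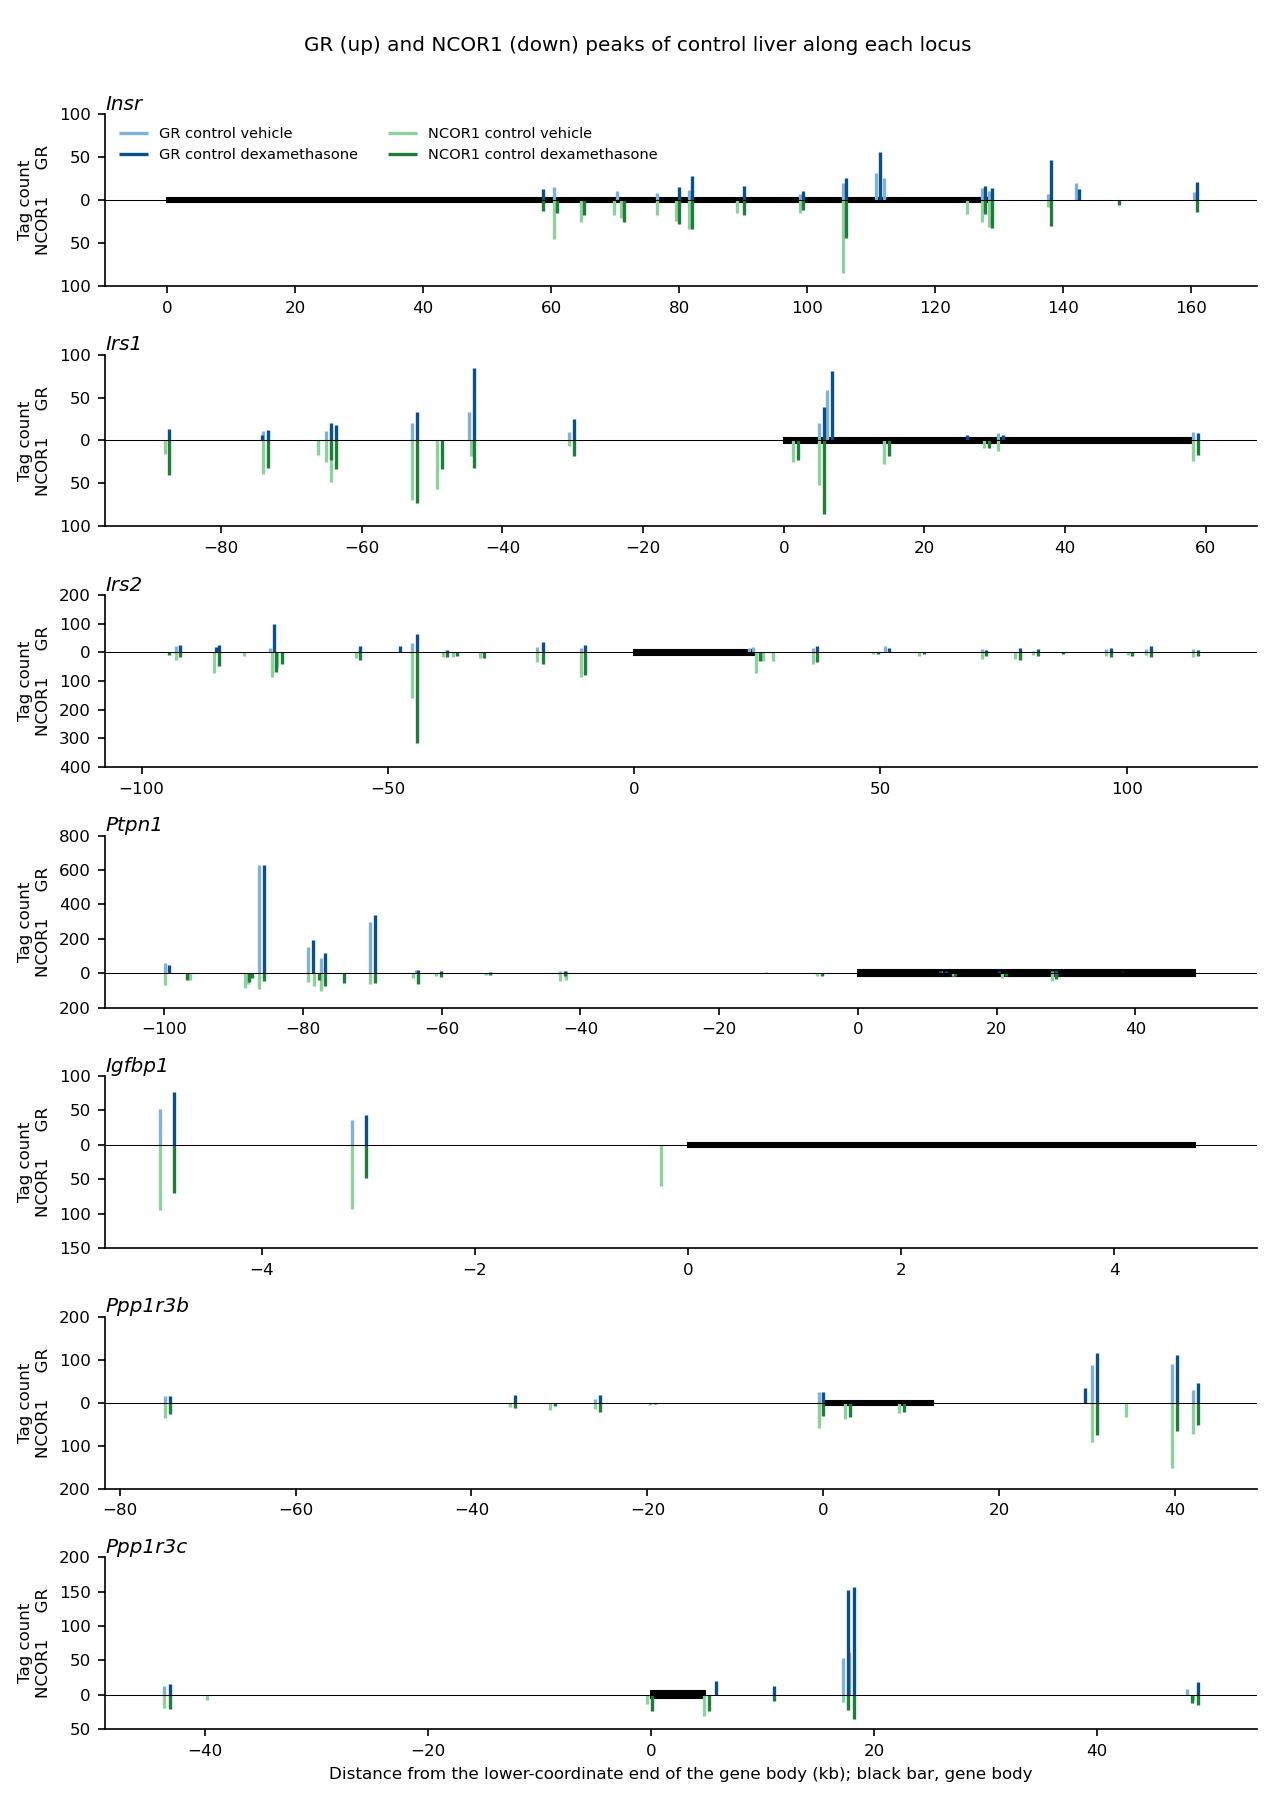
Called GR peaks (upward, blue) and NCOR1 peaks (downward, green) of control liver along each of the 7 loci, with bar height the tag count per 10 M tags, light bars vehicle and dark bars dexamethasone, drawn side by side where both were called. The x axis is the distance in kb from the lower-coordinate end of the gene body (black bar), and each locus has its own scales. The tallest GR bars stand upstream of Ptpn1 (626.2 in control dexamethasone) and the tallest NCOR1 bar beside Irs2 (316.1).

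Insr encodes the insulin receptor, and its body (chr8:3150922-3279649) held 18 of its 22 sites. The strongest GR site lay within the body at chr8:3261891-3262126. There the GR level was 31.7 under vehicle and 55.6 under dexamethasone in control liver, and 13.2 and 23.3 in dKO liver, and no NCOR1 peak was called. Levels were higher with dexamethasone in both genotypes, 1.75-fold in control (1.35 to 2.30) and 1.77-fold in dKO (1.19 to 2.65), and lower in dKO under both treatments, 2.40-fold under vehicle and 2.39-fold under dexamethasone. Another site, 9.12 kb beyond the higher-coordinate end of the gene (chr8:3288667-3288972), had the largest drug ratio in control liver among the matched GR sites of the 7 genes. GR there was 6.55 under vehicle and 46.8 under dexamethasone in control liver, and 13.3 and 35.4 in dKO liver. This gave a ratio of 7.15 (4.37 to 12.4) in control and 2.66 (1.87 to 3.95) in dKO liver. These counting intervals do not overlap, but they hold no spread between animals, and the site was named for its large control ratio. NCOR1 at the same site was 8.16 in control vehicle and 29.8 in control dexamethasone liver, 3.65-fold higher (2.05 to 6.52), and was not called in dKO.

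The strongest NCOR1 site of Insr (chr8:3256625-3256855, in the body) went the other way. NCOR1 was 85.2 in control vehicle and 44.8 in control dexamethasone liver, 1.90-fold lower, while GR was 20.0 and 26.0 in control liver under vehicle and dexamethasone, and 15.3 and 24.9 in dKO liver. A neighbouring site at chr8:3263088-3263310 had GR levels of 25.5 in control vehicle, 27.5 in dKO vehicle and 12.4 in dKO dexamethasone liver, and no GR peak in control dexamethasone liver. At the gene's higher-coordinate end (chr8:3279455-3279738) GR was at 10.4 under vehicle and 14.2 under dexamethasone in control liver and at 10.8 in dKO liver under vehicle, and NCOR1 was at 30.9, 32.9 and 10.9 in the same order.

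Irs1 encodes the other insulin receptor substrate considered here, and its gene lies on the minus strand (chr1:82233105-82291439). Its strongest GR site with dexamethasone was 44.3 kb past the end of the gene (chr1:82188627-82188868). GR was 32.6 under vehicle and 84.1 under dexamethasone in control liver, and 12.7 and 41.2 in dKO liver. Drug ratios were 2.58 (2.01 to 3.31) in control and 3.24 (2.23 to 4.68) in dKO, and the dKO level was 2.57-fold lower under vehicle and 2.04-fold lower under dexamethasone. NCOR1 was called there in control dexamethasone liver alone (32.1), although a control vehicle NCOR1 peak (17.7) lay beside it at chr1:82188913-82189113. Inside the gene near its 3' end, the site at chr1:82239515-82239726 had GR at 58.4, 80.4, 28.4 and 49.7 in the same order of groups and no NCOR1 in any list. It was the highest Irs1 site in control vehicle liver.

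Beside it in the same gene, GR and NCOR1 were both higher with the drug (chr1:82238340-82238552). NCOR1 was 51.5 in control vehicle and 85.3 in control dexamethasone, 1.66-fold higher (1.30 to 2.10), and GR was 20.2 and 39.3, 1.95-fold higher (1.41 to 2.75). A weaker site 30.2 kb past the gene (chr1:82202760-82203030) had GR at 9.46 and 25.1 and NCOR1 at 6.19 and 18.1 in control vehicle and control dexamethasone, ratios of 2.65 (1.67 to 4.30) and 2.92 (1.54 to 6.15). At the Irs1 start, peaks of 10.4 and 8.82 for GR and 24.2 and 17.3 for NCOR1 were called in control vehicle and control dexamethasone liver, and none in dKO. Irs1 was the gene with no NCOR1-antibody peak in dKO liver, against 15 peaks in control vehicle liver.

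Irs2, on the minus strand (chr8:10984681-11008929), had its strongest GR site 73.5 kb past its 3' end (chr8:10911042-10911257). GR was 15.1 under vehicle and 99.1 under dexamethasone in control liver, and 15.6 and 59.5 in dKO liver. Both vehicle levels were low and close together, with a dKO to control ratio of 1.03 (0.682 to 1.64). Dexamethasone gave 6.56-fold (4.79 to 9.46) in control and 3.81-fold (2.75 to 5.29) in dKO liver. No NCOR1 peak overlapped this site, and the next site, close by (chr8:10911422-10911667), had NCOR1 at 85.5 under vehicle and 67.6 under dexamethasone in control liver, and 16.0 under vehicle in dKO liver without a GR peak.

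The site 44.6 kb past Irs2 (chr8:10939931-10940186) held the highest NCOR1 level of the whole control dexamethasone list. NCOR1 was 158.1 in control vehicle (the 37th of that list), 316.1 in control dexamethasone (counting interval 298.3 to 334.8) and 60.4 in dKO vehicle liver (the 38th). It was 2.00-fold higher with the drug (1.75 to 2.286), whereas the median over all matched NCOR1 peaks was 0.804-fold. GR at this site was 31.1 and 64.6 in control liver under vehicle and dexamethasone, and 24.1 and 48.3 in dKO liver, with ratios of 2.08 (1.61 to 2.73) in control and 2.00 (1.51 to 2.68) in dKO. At 10.4 kb past the gene (chr8:10974160-10974419) NCOR1 was 84.7 and 79.8 in control liver under vehicle and dexamethasone, and 13.7 in dKO liver under vehicle, so there it was near equal between treatments (0.942-fold, 0.771 to 1.15).

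Around the Irs2 start GR was called under vehicle only. The site at chr8:11008431-11008632, in the gene near its start, was at 16.9 in control and 14.9 in dKO liver, and the site 439 bases upstream of the body was at 19.8 in control and 18.5 in dKO. Neither had a dexamethasone peak in either genotype, and the nearest dexamethasone peak was 11993 bases from the upstream site in control liver. These sites flank the printed Irs2 promoter. NCOR1 was called 932 bases upstream of the body, at 71.5 in control vehicle and 30.3 in control dexamethasone liver. The printed sequence over 4833411C07Rik carried GR in control dexamethasone liver (25.3) and NCOR1 in control vehicle (70.3) and control dexamethasone (47.8). Over 3930402G23Rik GR was 21.6 in control dexamethasone liver and, in dKO liver, 10.9 under vehicle and 17.7 under dexamethasone, without a control vehicle peak, and NCOR1 was 19.1 and 26.4 in control vehicle and control dexamethasone.

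Ptpn1 encodes PTP1B, the phosphatase that removes phosphate from the insulin receptor. The group of sites 70.0 to 86.0 kb upstream of its body (chr2:167930750-167979385) held the highest GR levels of the 7 genes. At chr2:167844639-167844864 GR was 626.3 under vehicle and 626.2 under dexamethasone in control liver, and 418.7 and 511.2 in dKO liver, the second highest of each list. The drug ratio was 1.00 in control (0.936 to 1.07) and 1.22 in dKO (1.13 to 1.31), and the dKO level was 1.5-fold lower under vehicle and 1.23-fold lower under dexamethasone. NCOR1 was 92.3 in control vehicle and 47.7 in control dexamethasone liver, 1.94-fold lower, without a dKO peak. At 70.0 kb (chr2:167860633-167860868) GR was 297.0 and 336.5 in control liver under vehicle and dexamethasone, and 137.4 and 230.3 in dKO liver. The drug ratio there was 1.13 (1.03 to 1.24) in control and 1.68 (1.49 to 1.89) in dKO liver, and NCOR1 was 63.6, 59.7 and 13.7.

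A further pair of sites lay between them. At 78.9 kb GR was 151.1, 195.5, 88.0 and 163.4 in the same order of groups, and at 77.1 kb it was 86.1, 114.4, not called, and 65.2. In dKO vehicle liver the nearest GR peak to the latter was at 35.6, 985 bases from the dKO dexamethasone peak. At the 3 of these 4 sites with a peak in every GR list, the drug ratio was larger in dKO than in control liver. The 78.9 kb site had ratios of 1.29 (1.14 to 1.47) in control and 1.86 (1.6 to 2.16) in dKO liver. The counting intervals do not overlap at any of the 3, but they hold no spread between animals. The Ptpn1 body itself carried weak GR, at most 18.8 in control dexamethasone liver (chr2:167958811-167959146). The next protein-coding gene to the strongest site was Ripor3, at 135.4 kb, and the 70.0, 77.1 and 78.9 kb sites lay inside the non-coding gene Gm32845, so assignment to Ptpn1 rests on distance alone.

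The distance limit cut this locus. Just inside it, a site 99.6 kb upstream of Ptpn1 had GR at 60.6 in control vehicle and 45.6 in control dexamethasone liver and none in dKO. The nearest dKO GR peaks were at 100.4 kb, 29.9 under vehicle and 62.5 under dexamethasone. Just outside, at 100.4 to 107.2 kb, 3 GR peaks stood in each list, at most 140.4 in control dexamethasone, and these are not among the 451. Insr likewise had a GR peak of 39.5 at 104.3 kb in control dexamethasone liver.

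Igfbp1, a secreted binding protein for insulin-like growth factors, is a classical target that insulin lowers and glucocorticoids raise. Its body lies at chr11:7197787-7202546. GR was called in all 4 lists at 2 of its 3 sites, all of which lay upstream. At 4.86 kb (chr11:7192775-7193027) GR was 52.2 under vehicle and 77.4 under dexamethasone in control liver, and 38.5 and 52.3 in dKO liver, with drug ratios of 1.48 (1.2 to 1.84) and 1.36 (1.07 to 1.73). NCOR1 at this site was 95.4 under vehicle and 70.2 under dexamethasone in control liver, and 10.3 under vehicle in dKO liver, 9.26-fold lower in dKO than in control under vehicle. At 3.05 kb (chr11:7194571-7194837) GR was 35.5, 42.8, 18.3 and 30.9, and the control drug ratio of 1.21 had an interval of 0.919 to 1.58. NCOR1 there was 92.6 in control vehicle and 48.8 in control dexamethasone liver, 1.90-fold lower, and was not called in dKO. The promoter peak (chr11:7197505-7197705), over the printed insulin response cores, was an NCOR1 peak of 59.4 in control vehicle liver, with no NCOR1 peak in the other lists and no GR peak in any.

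Ppp1r3c encodes a subunit that brings protein phosphatase 1 to glycogen. Neighbouring sites 12.5 and 13.1 kb upstream of the gene (chr19:36749052-36749323 and chr19:36749557-36749835) held its strong GR. At the first GR was 53.7 under vehicle and 152.4 under dexamethasone in control liver, and 10.1 and 68.5 in dKO liver. Its drug ratio was 2.84 (2.35 to 3.43) in control and 6.78 (4.72 to 10.4) in dKO. These counting intervals do not overlap but hold no spread between animals. Under vehicle the dKO level was 5.32-fold lower than control. At the second GR was 61.7, 157.0 and 69.1 in control vehicle, control dexamethasone and dKO dexamethasone liver, and it was not called in dKO vehicle. NCOR1 at the first was 10.7 in control vehicle and 22.8 in control dexamethasone, 2.13-fold higher (1.28 to 3.71), and at the second it was called in control dexamethasone alone (35.6). Beside the gene start, 681 bases upstream, GR was called with dexamethasone only, at 20.0 in control and 9.87 in dKO liver. The promoter itself, printed above, carried NCOR1 at 30.9 in control vehicle and 24.4 in control dexamethasone and no GR.

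Ppp1r3b encodes the liver-enriched glycogen-targeting subunit. GR and NCOR1 shared a pair of strong sites beyond the higher-coordinate end of the gene (chr8:35375694-35388139). At 18.4 kb (chr8:35406456-35406699) GR was 86.5 and 116.4 in control liver under vehicle and dexamethasone, and 34.4 and 60.3 in dKO liver, and NCOR1 was 91.4 and 76.1 in control vehicle and control dexamethasone. GR in dKO was 2.51-fold lower under vehicle and 1.93-fold lower under dexamethasone. At 27.4 kb (chr8:35415474-35415763) GR was 90.3, 111.4, 49.3 and 60.6, and NCOR1 was 152.8, 65.8 and 10.0, which is 2.32-fold lower with the drug and 15.3-fold lower in dKO. Beside the lower-coordinate end of the gene, GR was 24.2, 23.8, 12.7 and 15.8 and NCOR1 59.9 and 31.6, a control drug ratio of 0.983 for GR and 0.528 for NCOR1. All 6 of the GR peaks of Ppp1r3b in control vehicle liver overlapped a dKO vehicle peak, and each was lower in dKO. Of all control vehicle GR peaks 35.1% had no dKO vehicle peak, and of all matched ones 31.1% were higher in dKO.

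**Figure D2:**
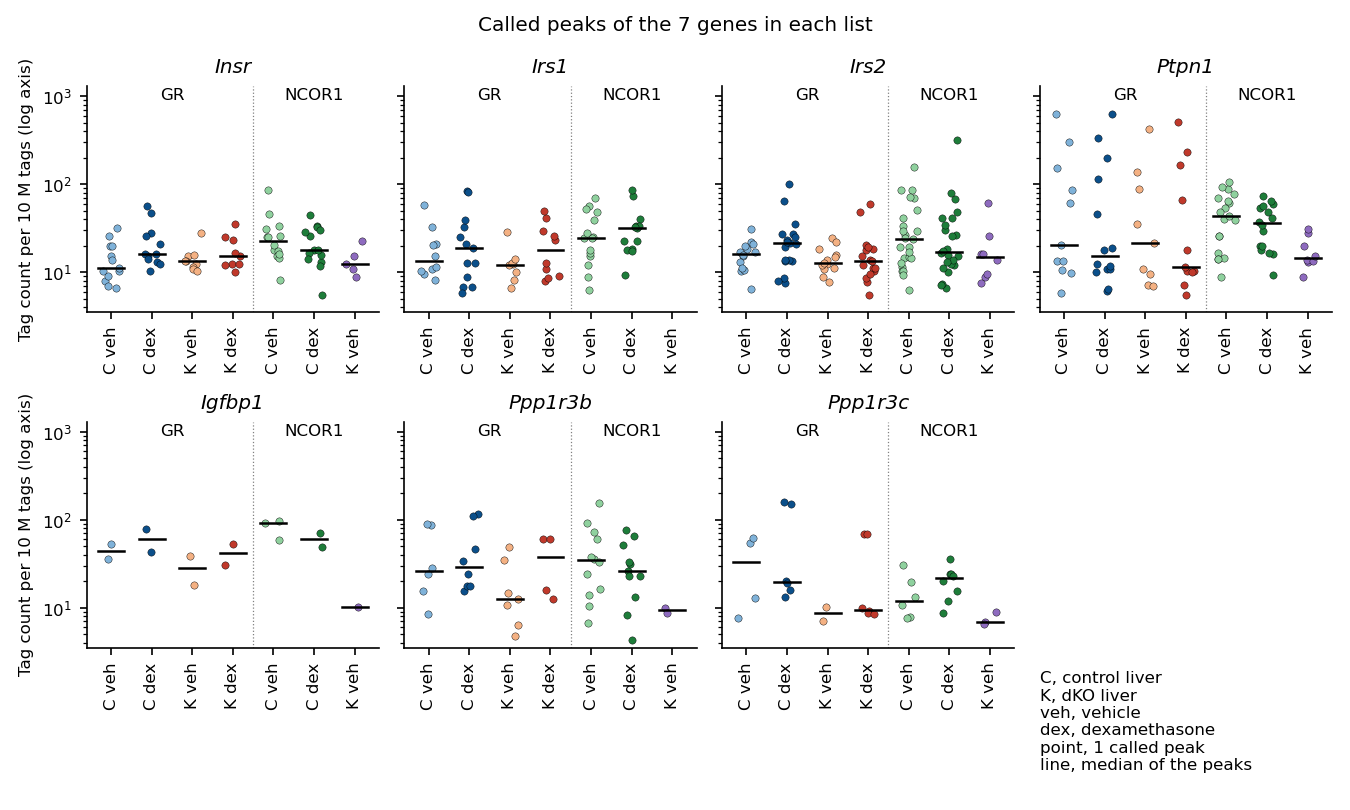
Tag count per 10 M tags (log axis) of every called peak of the 7 genes in each list; 1 point is 1 peak, the line is the median of the called peaks, C is control, K is dKO, veh is vehicle and dex is dexamethasone. Irs1 has no point in the NCOR1 dKO list, the top GR points of Ptpn1 lie between 418.7 and 626.3, and the 3 NCOR1 peaks of Ppp1r3c in dKO are at most 8.87.

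Across the 7 genes, GR peaks called under dexamethasone alone outnumbered those called under vehicle alone, as they did in the whole lists. Of 73 control dexamethasone peaks 25 had no overlapping vehicle peak (34.2%, interval 23.5 to 46.3), against 39.8% of all peaks of the list. Ptpn1 had 6 of 14 such peaks, Irs2 7 of 18, Irs1 4 of 13, Ppp1r3c 3 of 6, Insr 3 of 12, Ppp1r3b 2 of 8 and Igfbp1 0 of 2. The strongest were an Irs2 peak of 35.3, with a vehicle peak 236 bases away, and a Ppp1r3b peak of 34.3. Conversely 12 of 60 vehicle peaks had no dexamethasone counterpart (20.0%, against 18.1% of all), led by Insr (25.5) and Ptpn1 (20.4). In dKO liver 19 of 59 dexamethasone peaks (32.2%) had no vehicle peak, against 35.4% of all, and 10 of 50 vehicle peaks (20.0%) had no dexamethasone peak, against 21.5%. Over all peaks of the lists each of these shares lay near its background. Among peaks above the list median the dexamethasone-only shares were 28.8% in control (against 24.1%) and 22.5% in dKO liver (against 23.4%). The vehicle-only shares of such peaks were above the background, at 17.1% in control liver (6 of 35, against 6.73%). In dKO liver that share was 15.4% (4 of 26, against 6.84%). Of the control peaks without a counterpart, 4 of the 25 and 4 of the 12 had a peak of the other list within 500 bp.

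At peaks called under both treatments, GR was higher with dexamethasone at most sites of these genes. In control liver 38 of 48 matched peaks were higher, against 53.3% of all 24576 matched peaks, and the median log2 ratio was 0.42 (0.28 to 0.68), against 0.07. At least 2-fold higher were 12 peaks (25%, against 11.5%), and 0 were 2-fold lower (against 2.43%). In dKO liver 33 of 40 were higher, against 45.9%, with a median of 0.44 (0.29 to 0.75) against -0.11, with 6 at least 2-fold higher (15%, against 7.61%) and 1 at least 2-fold lower (against 8.63%). The gene medians in control liver were 1.35 for Ppp1r3c (3 peaks), 0.65 for Irs1 (9), 0.57 for Insr (9), 0.42 for Igfbp1 (2), 0.41 for Irs2 (11), 0.37 for Ppp1r3b (6) and 0.16 for Ptpn1 (8). Ratios in control liver ran from 0.61-fold (Insr, 13.5 kb beyond its higher-coordinate end) to 7.15-fold (Insr, 9.12 kb).

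**Figure D3:**
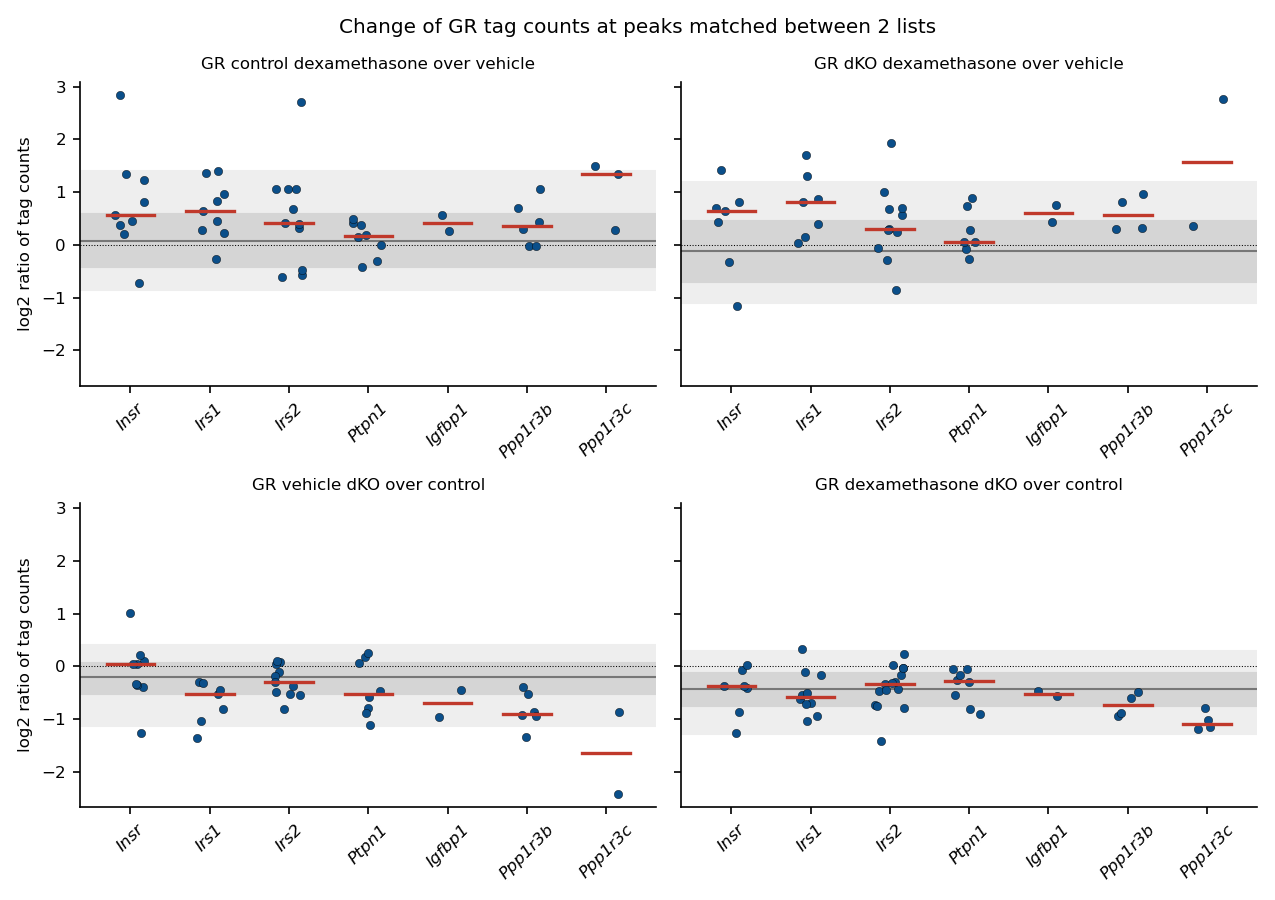
Log2 ratio of GR tag counts at peaks matched between lists, for dexamethasone over vehicle in control and dKO liver (upper panels) and dKO over control under vehicle and dexamethasone (lower panels). Points are matched peaks of each gene, red lines their medians, the grey line the median of all matched peaks, and the dark and light bands the percentiles 25 to 75 and 5 to 95 of all matched peaks. Most points lie above 0 in the upper panels (38 of 48 and 33 of 40) and below 0 in the lower ones (34 of 45 and 46 of 50).

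GR was lower in dKO liver at most of these sites under either treatment. Under vehicle 34 of 45 matched peaks were lower in dKO, with a median log2 ratio of -0.44 (-0.58 to -0.32), whereas over all matched peaks the median was -0.19 and 31.1% were higher. At least 2-fold lower were 6 peaks (13.3%, against 7.44%) and 1 was at least 2-fold higher (against 0.133%), the Insr site at 9.12 kb. The gene medians were -1.64 for Ppp1r3c (2 peaks), -0.90 for Ppp1r3b (6), -0.70 for Igfbp1 (2), -0.52 for both Irs1 (7) and Ptpn1 (8), -0.30 for Irs2 (11) and 0.04 for Insr (9). Under dexamethasone 46 of 50 were lower in dKO, with a median of -0.48 (-0.69 to -0.34), close to the -0.42 of all matched peaks, of which 16.3% were higher. At least 2-fold lower were 6 (12%, against 12.1%), 3 of them at Ppp1r3c, and 0 were at least 2-fold higher (against 0.324%). Relative to the median of all matched peaks, the dKO difference was -0.25 under vehicle and -0.06 under dexamethasone. Tags in peaks were also fewer in the dKO lists as a whole, 3.4% against 5.0% in control under vehicle and below the 7.23% of control under dexamethasone, and the part of this in the lower levels was not tested. The median dKO over control log2 ratio was -0.92 under vehicle and -0.73 under dexamethasone for GR peaks of the 10 hepatocyte markers, and -0.06 and -0.81 for those of the 10 markers of other liver cells.

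Peaks found in control and not in dKO were 15 of 60 under vehicle (25%, 14.7 to 37.9, against 35.1% of all peaks) and 23 of 73 under dexamethasone (31.5%, 21.1 to 43.4, against 39.5%). These shares depended on the peaks admitted. With peaks at least 8-fold over input the vehicle share was 45.7%, against 34.9% of all, so it lay above the background in place of below it. With lists of equal length the dexamethasone share was 29.7%, against 26.6% of all, and the vehicle share 20.8%, against 25.6%. Peaks of the 7 genes were higher than the lists as a whole, and among peaks above the list median 14.3% under vehicle (against 13.8%) and 27.1% under dexamethasone (against 20.9%) had no dKO peak. The strongest under vehicle were Ptpn1 at 77.1 kb (86.1), Ppp1r3c at 13.1 kb (61.7) and Ptpn1 at 99.6 kb (60.6). A dKO vehicle GR peak lay 987, 462 and 825 bases from them, in that order. Under dexamethasone they were Ppp1r3b at 29.8 kb (46.0) and Ptpn1 at 99.6 kb (45.6), with a dKO peak 2436 and 795 bases away. Within 500 bp a dKO peak lay near 2 of the 15 vehicle peaks and 2 of the 23 dexamethasone peaks. In the other direction 5 of 50 dKO vehicle peaks (10.0%, against 16.6%) and 9 of 59 dKO dexamethasone peaks (15.3%, against 12.9%) had no control peak. Among peaks above the list median these were 2 of 26 under vehicle (7.69%, against 2.2%) and 4 of 40 under dexamethasone (10%, against 5.44%). The vehicle share thus lay below or above its background with the peaks admitted.

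Of the 73 control dexamethasone GR peaks 35 were in the other 3 GR lists as well (47.9%, against 39.5% of all), and these allow the drug ratio to be set side by side in both genotypes. It was above 1 in both at 26 of them (74.3%), against 37.6% of all such peaks. It was larger in dKO at 18 of the 35 (51.4%, against 36.7%), and the median of the log2 difference was 0.00, against -0.16 over all. In 6 of the 35 the ratios lay on opposite sides of 1 (17.1%, against 12.8%). Control dexamethasone was the highest of the 4 levels at 27 of the 35 sites (77.1%, against 40.6%), and dKO vehicle the lowest at 25 (71.4%, against 37.4%).

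NCOR1 met GR at most GR sites of these genes. In control dexamethasone liver 55 of 73 GR peaks overlapped an NCOR1 peak (75.3%, 63.9 to 84.7), against 48.9% of all GR peaks. Among peaks above the median level of the list, 48 of 59 did (81.4%, against 56.8%). In control vehicle liver 44 of 60 did (73.3%, 60.3 to 83.9), against 54.3%. By gene, NCOR1 covered 14 of 18 GR peaks of Irs2, 10 of 12 of Insr, 9 of 13 of Irs1, 8 of 14 of Ptpn1, 7 of 8 of Ppp1r3b, 5 of 6 of Ppp1r3c and 2 of 2 of Igfbp1 in control dexamethasone liver. Seen from NCOR1, 55 of 88 control dexamethasone peaks (62.5%, against 53%) and 44 of 94 control vehicle peaks (46.8%, against 41.3%) overlapped GR. Of the 35 sites with GR in all 4 lists, 6 had no NCOR1 in either control list, among them the strongest GR sites of Insr and Irs2. The same share over all genes is not given here, so this count cannot be called few or many. The GR libraries were not size selected and the NCOR1 libraries were, so library type cannot be told apart from the protein in these overlaps.

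With dexamethasone NCOR1 was lower at more of these sites than it was higher. Of 73 matched NCOR1 peaks in control liver 28 were higher, 44 lower and 1 equal, against 28.4% higher over all, and the median log2 ratio was -0.24 (-0.38 to 0.04), against -0.31 over all. Relative to the median of all matched peaks it was 0.07, so its sign depends on the scaling. At least 2-fold higher were 6 peaks (8.22%, against 1.52%) and at least 2-fold lower 5 (6.85%, against 12.2%). Ppp1r3c had the highest gene median at 0.87 (5 peaks) and Igfbp1 the lowest at -0.68 (2 peaks). NCOR1 peaks without a counterpart were 21 of 94 under vehicle (22.3%, against 32.8%), led by the Ptpn1 site at 99.6 kb (69.2) and the Igfbp1 promoter (59.4), and 15 of 88 under dexamethasone (17%, against 29.6%). Among peaks above the list median these shares were 20.9% (against 18.4%) and 12.3% (against 12%), so the lower share did not hold for the higher peaks. The vehicle list rested on 17.8 M tags of 1 library and the dexamethasone list on 36.9 M tags of 2.

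Among peaks called for both proteins, those with the larger GR gain mostly had more NCOR1 as well. At 36 GR vehicle peaks of these genes that were matched in all 4 control lists, the log2 drug ratios of GR and NCOR1 had a Pearson r of 0.83 and a Spearman rho of 0.77, against 0.54 and 0.50 over all 11774 such peaks. These are descriptions over sites that share libraries and the input. GR was at least 2-fold higher at 8 of the 36, and NCOR1 was higher at 7 of those 8 (87.5%, against 67.1% of 1354). The eighth, an Insr site in the gene body (chr8:3232625-3232877), had GR at 11.1 and 28.1 and NCOR1 at 33.5 under both treatments. Sites without NCOR1 in both control lists are outside this set, among them the Irs2 site at 73.5 kb, where GR was 6.56-fold higher and NCOR1 was not called. At the site close beside it (chr8:10911422-10911667) NCOR1 was lower with the drug, 85.5 in control vehicle and 67.6 in control dexamethasone liver. Both were at least 2-fold higher at 3 (8.33%, against 1.1%), the Insr site at 9.12 kb, the Irs1 site at 30.2 kb and the Ppp1r3c site at 12.5 kb. The Irs2 site at 44.6 kb lay just under this limit for NCOR1, at 1.999-fold. GR was higher and NCOR1 lower at 17 of the 36 (47.2%, against 50.6%), including both Igfbp1 sites with GR, a share near the background.

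**Figure D4:**
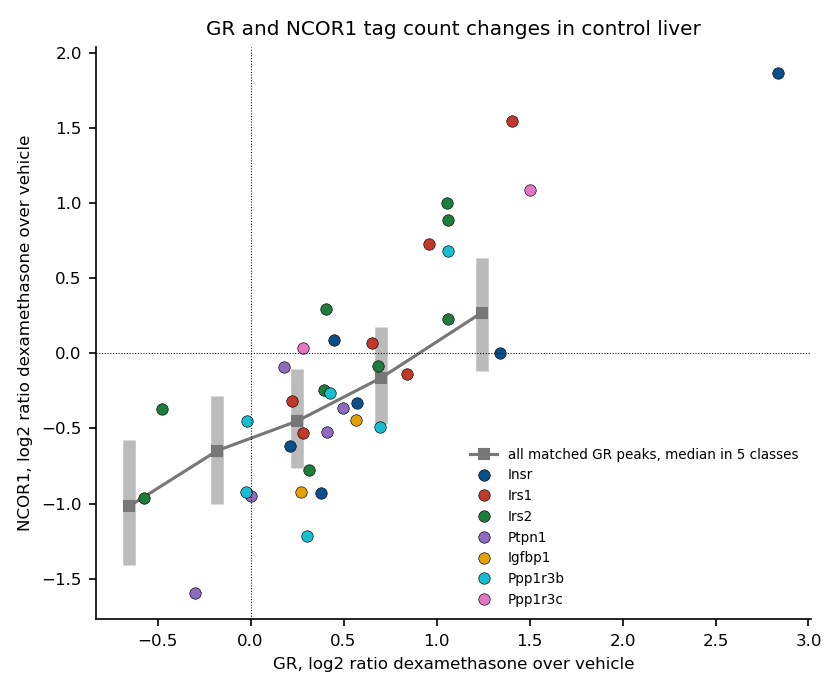
Log2 ratio of NCOR1 (y axis) against log2 ratio of GR (x axis), dexamethasone over vehicle in control liver, for the 36 peaks of the 7 genes called in all 4 control lists; colours are genes. Grey squares are medians of all 11774 matched peaks in 5 classes of GR ratio and grey bars their percentiles 25 to 75. The 3 points with both ratios above 1 belong to Insr, Irs1 and Ppp1r3c.

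In dKO liver the NCOR1 antibody left 27 peaks at these genes. Of 94 control vehicle NCOR1 peaks 16 had a dKO counterpart (17%, 10.1 to 26.2), against 20.5% of all, and with peaks at least 8-fold over input the share was 9.21%, against 12.9%. The level in dKO was lower at 13 of these 16, with a median log2 ratio of -1.80 (-2.63 to -0.94), against -0.39 over all matched peaks, of which 34.6% were higher. At least 2-fold lower were 12 (75%, against 31.5%), and 0 were at least 2-fold higher (against 8.19%). By gene, 6 of 19 Ptpn1 peaks, 4 of 25 of Irs2, 2 of 12 of Ppp1r3b, 2 of 6 of Ppp1r3c, 1 of 14 of Insr, 1 of 3 of Igfbp1 and 0 of 15 of Irs1 were also called in dKO. The highest dKO level was the Irs2 site at 44.6 kb (60.4, against 158.1 in control vehicle), 2.62-fold lower. At 3 sites the dKO level was higher. The site 38.4 kb past Irs2 (chr8:10946107-10946401) had 14.9 in control and 26 in dKO liver under vehicle, a ratio of 1.74 (1.06 to 2.97). The site 5.51 kb upstream of Ptpn1 had 14.1 and 20, a ratio of 1.42 (0.829 to 2.48). The site 63.7 kb upstream of Ptpn1 (chr2:167866841-167867137) had NCOR1 at 25.6 under vehicle and 63.5 under dexamethasone in control liver, and 31.2 under vehicle in dKO liver, a dKO ratio of 1.22 (0.791 to 1.81). Of the 27 dKO peaks, 16 overlapped a control vehicle peak (59.3%, against 46.9%). Each of these lists is 1 library.

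Other genes of the pathway were counted from 6 lists that held 81 genes with a gene body, of which 74 were not among the 7. Of these 74, 60 had a GR peak in control dexamethasone liver, 257 peaks in all, while 54.8% of all protein-coding genes had one. Their GR drug ratio was nearer the background: the median log2 ratio in control liver was 0.13, with 85 of 146 matched peaks higher, and 0.14 in dKO. GR peaks of the hepatocyte markers had drug medians of 0.31 in control and 0.56 in dKO liver, and those of the other liver cell markers 0.65 (13 peaks) and 0.22 (12 peaks), so a gain of the size seen at the 7 genes was also found at marker genes. In the pathway genes the dKO over control medians were -0.33 under vehicle and -0.45 under dexamethasone. Among relay genes the strongest GR sites were those of Foxo3 (236.1 in control dexamethasone), a forkhead factor that AKT restrains, Pik3r1 (178.2), a regulatory subunit of phosphoinositide 3-kinase, and Sos1 (47.1). Among insulin-like growth factor proteins Igfbp4 (181.5) and Igf1 (83.9) exceeded Igfbp1. Among enzymes of glycogen synthesis and breakdown these were Gys1 (62.6), a glycogen synthase, Gbe1 (61.3), the branching enzyme, and Pygl (46.0), the liver phosphorylase. The other synthase gene counted, Gys2, reached 32.3 in control dexamethasone liver. All of these were below the 2 targeting subunits among the 7 genes. Ppp1r3a (50.0) came next among targeting subunits, and Ptpn2 (37.3) among the negative regulators after Ptpn1.

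Genes whose summed levels were most like those of each member over the 7 lists were Rbfox2 and Pde4b for Insr, Pid1 and Ak4 for Irs1, Bach2 and Vps13d for Irs2, Lpp and Zbtb16 for Ptpn1, Grb14 and Abcc3 for Igfbp1, Phactr4 and 1110059E24Rik for Ppp1r3c, and Elovl6 and Cdh2 for Ppp1r3b. Likeness was the mean absolute difference in log2(sum + 1) over the 7 lists among 21882 other genes. It was 0.158 for Grb14 and 0.175 for Pid1, the closest of these, and 0.517 for Phactr4, so Ppp1r3c had the least similar nearest gene. Summed GR levels of Ppp1r3c were 135.9 and 377.4 in control liver under vehicle and dexamethasone, and 17.2 and 173.6 in dKO liver.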

How the data were processed

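Livers of male control and dKO mice gave 1 input library and 12 ChIP-seq libraries. The submitters' processing notes list HOMER 4.11, bedtools 2.29.2, BWA 0.7.17, Trim Galore 0.6.4 and mm10, without roles. Per the file headers, HOMER called peaks of 200 bp on pooled libraries against input, at 4-fold or more over input and over the surrounding 10 kb, each with p of at most 0.0001. The GR lists used a tag threshold of 15 and the NCOR1 lists an FDR of 0.1%, per the file headers. The deposited normalized tag count is a signal in tags per 10 M tags, and the deposited fold over input and over the local region are ratios, which the authors computed; all of these are the authors' values.

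Peak centres were assigned to the nearest protein-coding gene body (RefSeq, GRCm38.p6). Peaks of different lists matched when they overlapped by 1 bp or more, and the nearest centre was taken where several did. Shares carry Clopper-Pearson intervals, medians carry order-statistic intervals, and ratios of tag counts carry exact conditional intervals, with tags recovered from the tag count and the depth. All of these cover counting error only, and reads without molecular identifiers are not independent molecules. Overlap calls were checked against bedtools 2.31.1, and 0 of 213995 differed over 6 pairs of lists; on simulated ratios a planted median was recovered within 0.012. Python 3.11.15, pandas 2.3.3 and scipy 1.17.1 were used. Promoter windows came from RefSeq, 5 of 7 genes matching, and motif letters were searched in them.

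The 7 genes and the pathway, marker and motif lists were chosen with earlier results of these data known, and the insulin response cores were added after the windows had been read. Sites were to be named where they were the strongest of a gene, had its largest or smallest drug ratio, or exceeded the list median in some but not all lists of a protein. The last part took in 38 GR and 74 NCOR1 sites, so these are given by counts with the leading ones named. Other matching rules, thresholds and distances were tried. The labels give biological replicates, but each list pools them, so no spread between animals was available. No genome sequence was used here beyond the promoter windows.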

Additional observations from a re-analysis of the deposited data

How the results depend on the processing

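Each of 14 values was recomputed with an overlap of at least 100 bp, with centres within 500 bp, with peaks at least 8-fold over input, and within 20 kb of the gene; shares also with lists of equal length, and medians also after subtracting the median of all matched peaks. Of these 70 values 65 stayed within the interval of the reported one and 5 moved out of it. At 8-fold over input, the share of control vehicle GR peaks without a dKO peak was 45.7% (against 34.9% of all peaks) in place of 25%, and that of control vehicle NCOR1 peaks also called in dKO was 9.21% (against 12.9%) in place of 17%. After subtracting the median of all matched peaks, the dKO over control log2 ratio of GR was -0.248 under vehicle and -0.0565 under dexamethasone, and the NCOR1 drug ratio in control liver was 0.0706 in place of -0.24, the change of sign. The first filter drops peaks from both lists, and the cause of its effect was not tested.

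No paired analysis was possible because the replicate numbers of the labels are merged in each deposited list, and for the same reason no replicate was left out. A site without a peak had no call at that depth, which does not show absence of the protein, and tag counts near the threshold of 15 tags in a list have wide counting intervals.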

Other observations

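Beyond the 100 kb limit further peaks had Irs2 or Ppp1r3b as their nearest protein-coding gene. At 129.9 kb from Irs2, NCOR1 was 107.2 in control vehicle liver and 8.87 in dKO vehicle liver. At 163.9 kb from Ppp1r3b, NCOR1 was 119.6 in control vehicle liver. The overlapping GR peaks there were 63.3 under vehicle and 63.4 under dexamethasone in control liver, and 44.3 and 48.7 in dKO liver. At 157.5 kb from Ppp1r3b, GR was 79.9 under vehicle and 55.4 under dexamethasone in control liver, and 30.3 and 30.4 in dKO liver.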
